A study of Mus musculus with 24 samples.

Results

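The regions described here had a called H3K4me1 peak with doxycycline and none without it, and a called H3K27ac peak in neither condition. A peak that was not called need not mean that the mark was absent. A peak counted as a member when it stood in the doxycycline-treated H3K4me1 list, was at least 1000 bp wide, overlapped no peak of the untreated H3K4me1 list by 1 bp or more, and overlapped no peak of either H3K27ac list. Only assembled chromosomes were used. The rule found 2844 members among 58554 treated H3K4me1 peaks of that width, and among 272993 peaks in the 4 lists together. The peak lists themselves chose the members, so the members were chosen by measured values, namely the presence, width and overlap of called peaks, and their number and their absence from the other lists are a description with no test.

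The study mapped chromatin by ChIP-seq, with input controls, in 24 samples of a mouse erythroleukaemia, TgSpi1 (#763). The cells are labelled as leukemic erythroid cells from bone marrow, overexpress SPI1 and were cultured with EPO. Treated cultures received doxycycline for 48 h, which switches on a hairpin that targets the Spi1 transcript, and untreated cultures did not. Both groups share the transgenic cells, the inducible hairpin and EPO, and no group is labelled as doxycycline without the hairpin, so effects of the drug, of the hairpin and of lower SPI1 cannot be told apart. Each H3K4me1 list holds replicate 1 of its condition, each H3K27ac list stands for replicates 1 and 2 together, and #763 is the only cell line named. There is therefore no replicate error on any value, no test between conditions was run, and every interval below is an exact Clopper-Pearson 95% interval that covers counting error over peaks or genes alone. Read depth is unknown. The lists come from bulk chromatin, in which more cells carrying a mark and more of the mark per cell cannot be told apart. H3K27ac within 5 kb of a gene end stood at 41 of 47 genes of red cell membrane, globin and haem untreated and at 46 treated, against 25 and 23 of 52 myeloid genes and 1 and 1 of 21 stromal and endothelial genes.

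H3K4me1 is placed on the histone tail at enhancers by the MLL3 and MLL4 methyltransferases, often before the enhancer is active. H3K27ac is added by the acetyltransferases p300 and CBP where an enhancer or promoter is active. A site with H3K4me1 and no H3K27ac is commonly called primed, and SPI1, an ETS family factor of myeloid and B cells, is known to set up such sites in haematopoietic cells, while GATA1 is the leading factor of red cell enhancers.

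A few members lay over or beside the start of an annotated gene, and the letters of these start windows were read. Of 32851 RefSeq start windows (250 bases before to 50 after a start, GRCm38.p6, the assembly named mm10), 46 touched a member. They belonged to 45 genes, 20 of them protein-coding and 4 of these olfactory receptors, and to 45 members, 1.58% of all. Chosen after their values were seen, the 250 bases upstream of 4 of these starts are printed 5′ to 3′ on the gene's strand. The first 3 are shown because they hold the GATA factor motif AGATAA on either strand, in capitals. The last, of Pdilt, has no such match and is shown because it lies in the Acsm region that holds the widest member.
Olfr68 (olfactory receptor beside the beta-globin genes, chr7:103778344-103778593, minus strand): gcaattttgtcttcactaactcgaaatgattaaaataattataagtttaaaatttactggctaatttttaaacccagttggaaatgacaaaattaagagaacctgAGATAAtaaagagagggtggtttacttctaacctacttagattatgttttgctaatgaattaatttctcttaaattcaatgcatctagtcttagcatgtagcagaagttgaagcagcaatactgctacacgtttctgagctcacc
Hsd3b1 (steroid dehydrogenase, chr3:98859795-98860044, minus strand): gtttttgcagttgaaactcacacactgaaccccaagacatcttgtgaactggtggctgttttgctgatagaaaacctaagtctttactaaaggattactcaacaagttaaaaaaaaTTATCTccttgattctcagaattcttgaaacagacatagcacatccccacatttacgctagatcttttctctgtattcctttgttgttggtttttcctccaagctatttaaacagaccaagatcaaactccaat
Tmcc3 (chr10:94575007-94575256, plus strand): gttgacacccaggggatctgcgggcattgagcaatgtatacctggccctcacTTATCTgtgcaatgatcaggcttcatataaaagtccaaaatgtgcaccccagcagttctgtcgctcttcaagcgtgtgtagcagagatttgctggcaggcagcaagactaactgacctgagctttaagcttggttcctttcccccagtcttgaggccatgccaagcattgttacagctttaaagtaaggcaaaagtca
Pdilt (chr7:119523483-119523732, minus strand): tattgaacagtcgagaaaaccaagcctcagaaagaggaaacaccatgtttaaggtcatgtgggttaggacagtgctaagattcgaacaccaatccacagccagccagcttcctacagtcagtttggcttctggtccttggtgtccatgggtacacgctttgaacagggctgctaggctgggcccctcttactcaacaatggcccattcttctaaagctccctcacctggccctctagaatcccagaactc

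AGATAA was found on either strand in 11 of the 46 windows, 23.9% (12.6 to 38.8%), against 11.2% of all start windows, 15.1% of the 73 windows under unacetylated H3K4me1 sites of the untreated list alone and 13.3% of the 1554 under such sites of both lists. The SPI1 motif GAGGAAGT was found in 0 of the 46, for which the interval reaches 7.71%, against 3.20% of all windows and 8 of the 73, 11.0% (4.85 to 20.5%), under sites of the untreated list alone. The KLF motif CCACCC was found in 11 of the 46, 23.9%, against 31.5% of all windows. The AP-1 motif TGACTCA was in 4, 8.70% against 5.20%, and the RUNX motif TGTGGT in 8, 17.4% against 16.8%. All were searched on both strands of the whole window, and none of them contains another. A window counted when any part of it touched a member, so a match can lie outside the member. The window of Olfr322, which has AGATAA, had 41 bp under its member. Every interval except that for AGATAA holds the share over all windows, and that for AGATAA holds the shares under both other kinds of site. G and C made up 47.6% of the bases of these windows and 53.8% of those of all windows, and base composition was not matched. The members away from gene starts, which are nearly all of them, were not searched.

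MicroRNA genes under members were counted beside the length that the sites covered. Of 1005 RefSeq hairpins, 3 lay under a member, and members covered 3.79 Mb. Under unacetylated H3K4me1 sites of the untreated list alone (3.72 Mb) lay 5, and under such sites of both lists (59.0 Mb) lay 50. The mature forms under members are shown with the seed, bases 2 to 8, in capitals because no seed is shared between them.
miR-130a-3p: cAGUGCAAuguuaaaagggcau
miR-130a-5p: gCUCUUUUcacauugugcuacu
miR-6398: gUCAAUGAaccucagguaagg
miR-7059-3p: uGUUUGCUguuuguccucccag
miR-7059-5p: aCCGGGGAcugcggcuuucagu
The member over Mir130a (chr2:84739799-84741201, 1403 bp) lay 598 bp from an untreated H3K4me1 peak, 2248 bp from untreated H3K27ac and 1998 bp from treated H3K27ac. The one over Mir6398 lay 43098 bp from untreated and 47098 bp from treated H3K27ac.

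Treated peaks with no counterpart in the untreated list almost never overlapped an H3K27ac peak. Of the 58554 treated peaks, 2857 (4.88%; 4.71 to 5.06%) had no overlap with the untreated H3K4me1 list, and 13 of these had H3K27ac, 7 in the untreated and 12 in the treated list. The remaining 2844 were 99.5% of them and 4.86% of the 58554. Among the 55697 treated peaks that did overlap an untreated peak, 30004, or 53.9%, had no H3K27ac. These 30004 are called persistent sites below. The same rule turned around, on the 56627 wide peaks of the untreated list, found 2788 unacetylated sites of that list alone (4.92%), called untreated-only sites. They were 97.7% of the 2855 wide untreated peaks with no overlap with the treated list, and 67 of the 2855 had H3K27ac. Lack of H3K27ac was thus shared by both kinds of site and not particular to the treated list. Members made up 8.66% of the 32848 unacetylated sites of the treated list. These numbers depend on the lists as called, since 1297 of the members but 2403 of the untreated-only sites scored above the middle rank of their own H3K4me1 list.

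Members were narrower than persistent sites and, width for width, scored lower. A wider peak has more room to overlap an untreated one, so the rule bears on width itself. Their median width was 1203 bp (quartiles 1053 and 1453 bp, widest 5303 bp), against 1653 bp for persistent sites. Of the members 2183 were under 1500 bp, 461 were 1500 bp to under 2000 bp and 200 were at least 2000 bp wide, so that 7.03% fell in the widest class against 34.9% of persistent sites. Together they covered 3.79 Mb. The authors give each H3K4me1 peak a score whose scale is not stated and which follows width. Within width classes the median score of members was 7.61, 11.9 and 17.4, and that of persistent sites was 8.71, 13.1 and 21.3. Untreated-only sites, scored in their own list, had medians of 8.03, 12.3 and 16.8. The median member ranked at 51.0% of the treated list, where 0 would be the best scored peak.

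**Figure D1:**
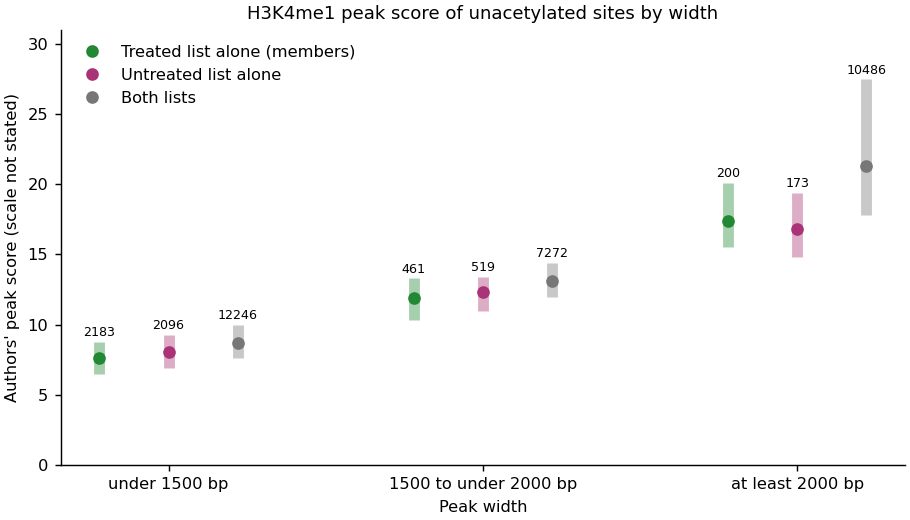
The authors' H3K4me1 peak score (vertical axis, scale not stated) is plotted for 3 classes of peak width. Dots are medians, bars run from the lower to the upper quartile and the number of sites stands above each bar. Members lay below persistent sites in each width class, with the widest gap, 17.4 against 21.3, among sites of at least 2000 bp.

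Many members lay close to what decided their membership. The smallest width inside the rule was 1003 bp, shared by 424 members, and the largest outside it was 953 bp, shared by 470 unacetylated peaks of the treated list alone. In all, 18118 such peaks were narrower than 1000 bp. The nearest a member came to an untreated H3K4me1 peak was 48 bp, for 22 members, among them chr2:158416699-158418901, 2203 bp wide with a score of 16.4. Just outside, 26 persistent sites overlapped an untreated peak by 3 bp, among them chr19:55230599-55232551, 1953 bp wide with a score of 14.7. Distance to the nearest untreated H3K4me1 peak had a median of 2598 bp, with 697 members (24.5%) within 1 kb and 178 (6.26%) over 50 kb away. Those 178 lay in gene-poor ground: 64.6% were intergenic, against 33.1% of the 697, and their median distance to treated H3K27ac was 324148 bp. Within 5 kb of an untreated peak were 66.9% of members, so most stood beside chromatin that was also marked in the untreated list. A small group stood apart from it.

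A larger share of members than of the other unacetylated sites lay between genes. Within 1 kb of an end of a protein-coding gene were 162 (5.70%; 4.87 to 6.61%), inside a gene body 1484 (52.2%; 50.3 to 54.0%) and between genes 1198 (42.1%; 40.3 to 44.0%). Persistent sites had 9.46%, 54.1% and 36.4%, and untreated-only sites 7.25%, 57.6% and 35.2%. In the widest class 48.5% of members (41.4 to 55.7%) were intergenic, against 28.3% of untreated-only sites (21.7 to 35.7%) and 32.7% of persistent sites. Members more than 100 kb from any gene end were 14.7%, against 9.43% and 7.66% of untreated-only and persistent sites. By chromosome, members were 3.95% of wide treated peaks on chromosome 17 and 6.57% on chromosome 18, the lowest and the highest of the chromosomes other than Y, which had 0 of 3.

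H3K27ac around members lay closer, and covered more, in the treated list, although the members themselves had none. The median distance from a member to the nearest H3K27ac peak was 20673 bp untreated and 15923 bp treated. Untreated-only sites were the mirror image, with 13898 bp and 20048 bp, and persistent sites had 12798 bp and 14148 bp. The treated peak was the nearer of the pair for 1730 members (60.8%; 59.0 to 62.6%), the untreated peak for 933 (32.8%), and 181 had equal distances. Over persistent sites, the background for this count, the treated peak was nearer for 45.7%, and over untreated-only sites for 30.7%. This share of members was larger in wider classes, 58.8% under 1500 bp, 65.1% from 1500 bp to under 2000 bp and 73.5% (66.8 to 79.5%) at 2000 bp and above. These differences are between lists of 28902 untreated and 23341 treated H3K27ac peaks that covered 41.5 and 41.2 Mb.

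**Figure D2:**
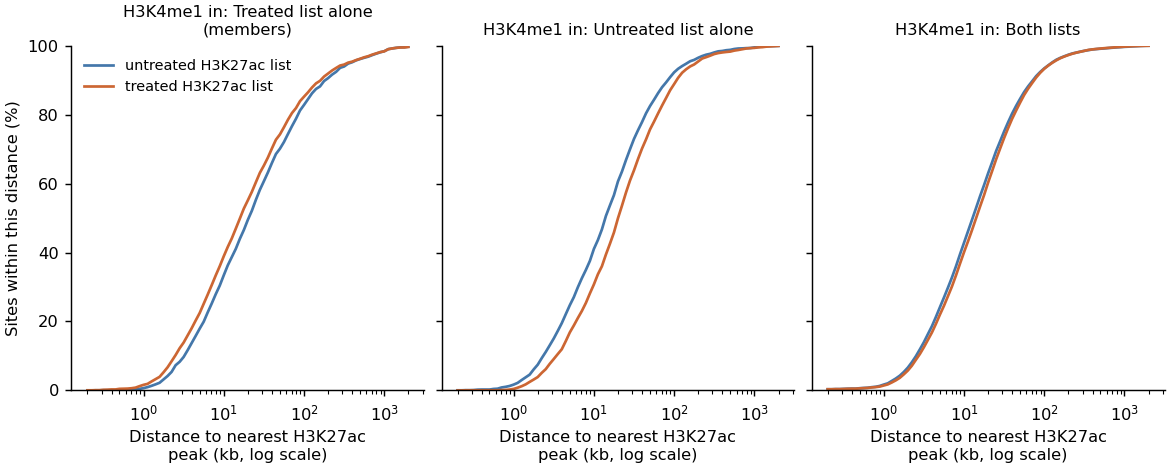
Each panel gives the share of sites (%) that lie within a given distance (kb, log scale) of the nearest H3K27ac peak of the untreated list (blue) and of the treated list (orange). The treated curve lies to the left for members, with medians of 15923 bp treated and 20673 bp untreated, to the right for sites of the untreated list alone, and near the untreated curve for sites of both lists.

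The kind of H3K27ac peak nearby also differed. The nearest H3K27ac peak of any list was of the treated list alone for 656 members (23.1%; 21.5 to 24.7%), of the untreated list alone for 393 (13.8%; 12.6 to 15.1%) and in both lists for 1795 (63.1%). For persistent sites these shares were 12.6%, 21.4% and 66.0%, and for untreated-only sites 6.92%, 33.2% and 59.8%. H3K27ac of the treated list alone was thus the nearest for a larger share of members than of persistent sites (12.2 to 13.0%). Neighbouring members can share a nearest peak, and the intervals count each site as separate, so the difference was not tested. An H3K27ac peak of the treated list alone lay within 20 kb of 673 members (23.7%), against 15.5% of persistent sites, although that list has 3983 such peaks and the untreated list 7928.

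Summed over 20 kb on each side, H3K27ac covered a mean of 1491 bp around a member untreated and 2047 bp treated. It was longer in the treated list at 1143 members, shorter at 472 and equal at 1229, so that 70.8% of the unequal ones (68.5 to 73.0%) were longer. That share was 67.8% for members under 1500 bp, 78.3% for 1500 bp to under 2000 bp and 87.2% (79.4 to 92.8%) for the widest. Untreated-only sites had 28.8%, with means of 1879 and 1454 bp, and persistent sites 49.0%, with means of 2022 and 2046 bp. H3K4me1 in the same flanks, with the site itself left out, covered 7168 bp untreated and 9391 bp treated around members, and 9645 and 10109 bp around persistent sites. Around members both marks thus covered more in the treated lists, and neighbouring members share some of these flanks. Over the whole genome H3K27ac covered nearly equal lengths in its lists, as given above.

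**Figure D3:**
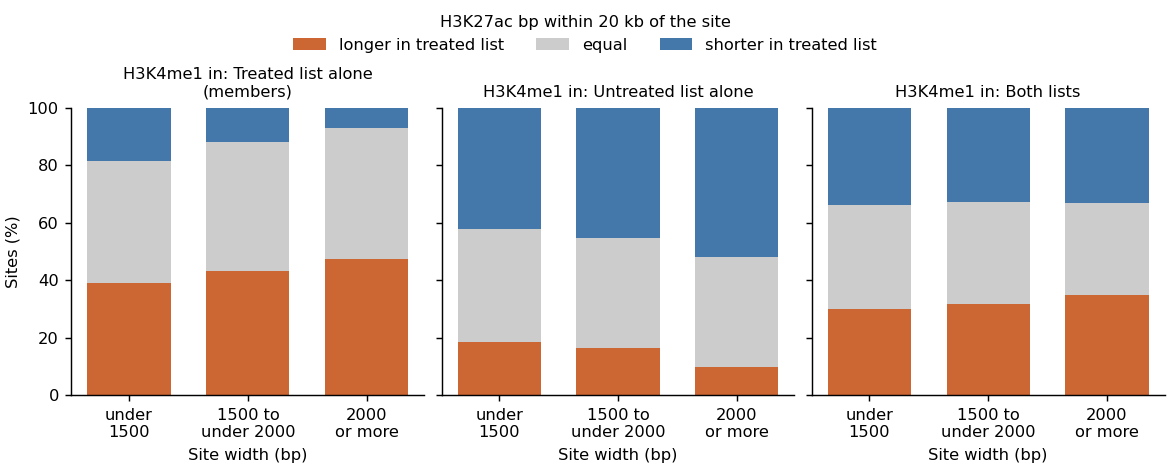
Bars show the share of sites (%) at which H3K27ac peaks within 20 kb covered more bp in the treated list (orange), equally many (grey) or fewer (blue), by site width in bp. Among members the orange part grows with width to 47.5% and the blue part shrinks, to 14 of the 200 widest, sites of the untreated list alone show the reverse, and sites of both lists hold near-equal parts.

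Of 21887 protein-coding genes, 2548 (11.6%) had a member in the gene body or within 20 kb of it, and 2793 (12.8%) had an untreated-only site. H3K27ac at the ends of a gene, meaning bp covered within 5 kb of either end, was longer in the treated list for 25.5% of all genes and shorter for 26.1%. Of the 2548 genes near a member it was longer for 1090, shorter for 707 and equal for 751, so that 60.7% of the unequal ones (58.4 to 62.9%) were longer, against 49.4% over all genes and 41.7% for genes near an untreated-only site. Where a gene had at least 2 members and no untreated-only site, 169 of 345 were longer and 67 shorter, which is 71.6% of the unequal (65.4 to 77.3%). With at least 3 members it was 38 longer and 13 shorter of 81, or 74.5%. The mean over the 2548 genes was 2001 bp untreated and 2178 bp treated, and the median difference was 0 bp. A longer gene has more room for a site: a member lay near 6.11% of genes under 10 kb, 11.1% of those of 10 to 50 kb, 20.8% of those of 50 to 200 kb and 30.8% of those over 500 kb.

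Genes that build the red cell were near a member at a higher share than this background. Of 47 matched genes for the erythroid membrane, globins and haem, 18 (38.3%; 24.5 to 53.6%) were near a member and 4 (8.51%) near an untreated-only site, with 21 distinct members and 131 persistent sites between them. Their median length was 16.7 kb, close to the 17.2 kb of all genes. Members were 13.8% of the unacetylated treated sites near these genes, against 7.77% near all genes. This contrast is smaller than that of the gene shares. Over the body and 20 kb on each side, H3K27ac was longer in the treated list at 16 of the 18, shorter at 1 and equal at 1. The longer ones were 94.1% of the unequal. Over all genes 29.3% were longer, which is 47.3% of the unequal. Among all 2548 genes near a member, 1324 were longer, 864 shorter and 360 equal, or 60.5% of the unequal. The list as a whole had longer H3K27ac there at 39 of 47, whether or not a member was near. The members sat close to acetylated chromatin, a median of 6198 bp from untreated and 5348 bp from treated H3K27ac, and 15 of 21 were nearer to the treated peak. The count of 18 fell to 7 when members had to be at least 1500 bp wide, where 2.75% of all genes had a member, and to 3 at 2000 bp, where 0.763% had one.

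Among membrane skeleton genes, Ank1, which encodes the ankyrin that ties the band 3 anion exchanger to spectrin (chr8:22974836-23150501), had 4 members inside the gene, 7 persistent sites and 0 untreated-only sites. The widest, chr8:23082699-23085051, spanned 2353 bp with a score of 20.2 and lay 3898 bp from untreated and 4298 bp from treated H3K27ac. Over Ank1 and its flanks H3K27ac covered 16683 bp untreated and 24133 bp treated, and H3K4me1 60360 and 77581 bp. Members were 5462 bp of that treated H3K4me1. Both marks were thus longer in the treated lists, and the members were 36.4% of the unacetylated treated sites there.

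Sptb, a beta-spectrin gene, had 1 member and 1 untreated-only site, and its H3K27ac covered 11115 bp untreated and 15774 bp treated. Epb42 (protein 4.2) went from 2312 to 5362 bp, Dmtn (dematin, an actin bundler) from 3062 to 9812 bp and Tmod1 (tropomodulin, which caps actin) from 3803 to 5709 bp. Slc4a1, the anion exchanger itself, had no H3K27ac in its body and flanks untreated and 4109 bp treated, with H3K4me1 at 12824 and 28304 bp and its member 11769 bp from the gene. All 6 of these genes of membrane and skeleton, Ank1 included, had longer H3K27ac and longer H3K4me1 in the treated lists. They were named for a member nearby, and members count in the treated H3K4me1 length, here and at the genes below. The longer H3K4me1 thus follows in part from the rule and is a description.

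Haem genes near a member included Alas2, Uros, Fech and Slc25a38. Alas2, which starts haem synthesis in red cells (chrX:150547417-150570622), had a 1203 bp member at its far end, chrX:150568549-150569751, and H3K27ac of 2959 bp untreated and 9424 bp treated. Uros, uroporphyrinogen III synthase, had a 1703 bp member in its body 898 bp from treated and 2048 bp from untreated H3K27ac, with H3K27ac of 3659 and 10159 bp. At Fech, ferrochelatase, which inserts the iron, H3K27ac was 12415 and 13056 bp. Slc25a38, the mitochondrial glycine carrier, had 13809 bp in both lists, and was the equal case.

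Among globins, Hba-a2, an adult alpha-globin gene, had a 1103 bp member 9239 bp from the gene at chr11:32306549-32307651. Untreated H3K27ac was 36298 bp from that member and treated H3K27ac 8448 bp, and the gene's body and flanks held 0 bp untreated and 9265 bp treated. Hba-a1 and Hba-a2 are near-identical copies, so that reads placed in them may be shared. Near Hbb-bt, an adult beta-globin gene, a 1003 bp member stood 11723 bp from the gene, with H3K27ac of 10012 and 15774 bp. It belonged to a row of 4 members over 24.3 kb, chr7:103776499-103800801, across the olfactory receptor genes Olfr68 and Olfr67 that border the cluster. Of these the widest, 2603 bp with a score of 21.9, covers the Olfr68 start printed above, and lay 27898 bp from untreated and 14198 bp from treated H3K27ac. All 4 had a treated-only H3K27ac peak as the nearest.

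Other genes of the list near a member were Car2, Erfe, Trim58 and Ubac1. Erfe, which encodes the iron hormone erythroferrone, had a 2303 bp member 15104 bp from the gene and H3K27ac of 2859 bp untreated and 11212 bp treated. Trim58, a ubiquitin ligase of late erythroblasts, had 3809 and 5356 bp, and Ubac1 8874 and 12259 bp. Car2, carbonic anhydrase, was the case with shorter H3K27ac, 21071 and 20718 bp, and its 1603 bp member at the gene's end was 48 bp from an untreated H3K4me1 peak.

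**Figure D4:**
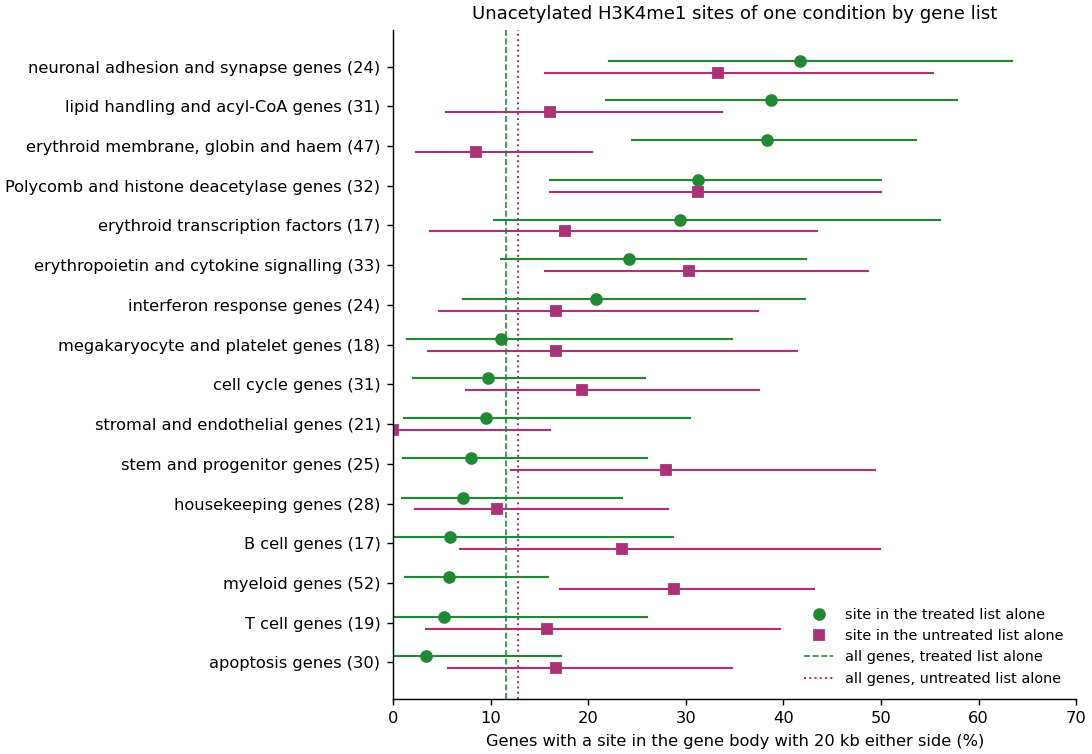
For each gene list, with its number of matched genes in brackets, the share of genes (%) with a member (green circles) or with an unacetylated site of the untreated list alone (purple squares) in the gene body or within 20 kb is shown with exact 95% intervals. Dashed and dotted lines mark the shares over all protein-coding genes, 11.6% and 12.8%. Among erythroid genes the interval of the member share (38.3%) lies above its line and that of the other share (8.51%) holds its line. Among myeloid genes the interval of the untreated-only share (28.8%) lies above its line and that of the member share (5.77%) holds its line.

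Erythroid transcription factor genes were few but included the gene with the most members. Of 17 genes, 5 (29.4%; 10.3 to 56.0%) were near a member and 3 near an untreated-only site, and 16 of their 20 members lay in Sox6. Sox6 encodes an HMG-box factor that helps silence embryonic globin and complete red cell maturation. In its 570 kb (chr7:115470872-116040776, minus strand) there were 16 members, 23 persistent sites and 0 untreated-only sites, so that members were 41.0% of the unacetylated treated sites. Widths ran from 1003 to 1803 bp, the widest being chr7:115707949-115709751 with a score of 13.8. H3K27ac over the gene and flanks covered 14439 bp untreated and 38857 bp treated, and H3K4me1 113902 and 223774 bp. Members stood 22.8 to 404 kb from the gene's start, in rows of 5 and 4 as well as alone. The row of 5, 22.8 to 46.8 kb from the start, had 1653 bp of H3K27ac within 20 kb untreated and 5156 bp treated. The row of 4, further in, had 0 bp in both lists and the nearest H3K27ac over 100 kb away, so the members of Sox6 were not all beside acetylated chromatin. Of the Sox6 members 3 were at least 1500 bp wide and 0 at least 2000 bp. With a minimum width of 500 bp it had 45 such peaks, and 2 of the untreated list alone.

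The other factors near a member had 1 each. Klf3 had H3K27ac of 9459 bp untreated and 10359 bp treated and Gfi1b, a repressor needed for red cells and platelets, 21849 and 25299 bp. Klf1, the activator of adult beta-globin, had 11418 and 10965 bp and Lmo2, a bridging subunit of the GATA1 and TAL1 complex, 17962 and 17012 bp. H3K27ac was thus longer in the treated list at 2 of these 4 and shorter at 2. Spi1, whose transcript the hairpin targets, had 0 members, 0 untreated-only sites and 2 persistent sites, with H3K27ac of 6974 and 6871 bp in its body and flanks. A transcript-level knockdown is not measured by these marks.

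The lists of other blood lineages had shares of genes near a member at or below the 11.6% over all genes, and every one of their intervals holds 11.6%. Of 52 myeloid genes 3 (5.77%; 1.21 to 15.9%) were, against 15 (28.8%; 17.1 to 43.1%) near an untreated-only site. They were Plek, a platelet and leukocyte PKC substrate, Ncf4, a phagocyte oxidase subunit, and Btk, a kinase of B and myeloid cells. Plek had 2 members, H3K27ac of 16133 and 23273 bp, and a 2503 bp member with a score of 18.2. Ncf4 had 0 and 4862 bp of H3K27ac, with untreated H3K27ac 60898 bp and treated H3K27ac 1348 bp from its member, and also 1 untreated-only site. Btk had 17324 and 14965 bp.

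In the B cell list 1 of 17 genes was near a member and 4 near an untreated-only site, in the T cell list 1 and 3 of 19, in the stem and progenitor list 2 and 7 of 25, and in the megakaryocyte and platelet list 2 and 3 of 18. The B cell gene was Ebf1, a factor that specifies B cells, with 2 members, no H3K27ac untreated and 2006 bp treated. Its members were 244398 and 253398 bp from untreated H3K27ac and 9998 and 1698 bp from treated H3K27ac. Thbs1, thrombospondin of platelets, had 2 members, H3K27ac of 0 and 503 bp and H3K4me1 of 603 and 9018 bp, and Gp9, a platelet glycoprotein, had H3K27ac of 9018 and 11600 bp. Tek, an endothelial and stem cell receptor gene, had H3K27ac of 953 and 1256 bp. Genes of another lineage thus also appear among those near a member.

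Of 33 genes of erythropoietin and cytokine signalling, 8 (24.2%; 11.1 to 42.3%) were near a member and 10 (30.3%; 15.6 to 48.7%) near an untreated-only site, against 11.6% and 12.8% over all genes. H3K27ac at the 8 was longer in the treated list at 3 and shorter at 5. Jak2, the kinase of the erythropoietin receptor, had H3K27ac of 10871 bp untreated and 5909 bp treated with 1 member in its body, Stat3 13480 and 10021 bp, and Dusp8, a MAP kinase phosphatase, 5315 and 11280 bp. Gab2, an adaptor, had 1 member and 5 untreated-only sites, with H3K27ac of 16680 and 8662 bp. The Polycomb and histone deacetylase list had 10 of 32 genes (31.2%, with a lower bound of 16.1%) near each kind of site, 4 of them near both. H3K27ac at the 10 near a member was longer in the treated list at 3, shorter at 6 and equal at 1. Its leading genes were Rbbp4, a histone chaperone of several complexes, with 2 members and H3K27ac of 5012 and 5865 bp, Hdac8 with 2 members and 1553 and 1503 bp, and Cbx7, a chromodomain subunit, with a member of 2053 bp and H3K27ac of 3662 and 4512 bp.

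Of 31 cell cycle genes 3 (9.68%) were near a member and 6 (19.4%) near an untreated-only site. Ccnd3, cyclin D3, which sets the number of divisions of erythroid precursors, had 3 members in its body and H3K27ac of 34696 and 41790 bp. Ccne1 had a 2453 bp member and H3K27ac of 4956 and 6359 bp, and Rbl1 had 10839 and 9821 bp. Of 30 apoptosis genes Fasl alone (3.33%) was near a member, and 5 (16.7%) were near an untreated-only site. Its H3K27ac was 0 and 2253 bp. Of 24 interferon response genes 5 (20.8%; 7.13 to 42.2%) were near a member and 4 (16.7%) near an untreated-only site, where Ifit1 had H3K27ac of 0 and 1506 bp and its member a treated H3K27ac peak 998 bp away against 50348 bp untreated. The neighbours Oas2 and Oas3 share 1 member. Of 21 stromal and endothelial genes, 2 and 0 were, namely Tek and Eng. Of 28 housekeeping genes, 2 and 3 were, Snrpd3 and Polr2a, with H3K27ac of 5506 and 5656 bp and of 6462 and 5009 bp. For these 5 lists every interval of the member share holds the 11.6% over all genes.

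Lipid handling genes held many members. Of 31 genes, 12 (38.7%; 21.8 to 57.8%) were near a member and 5 (16.1%) near an untreated-only site, with 21 distinct members, of which 20 were nearer to treated than to untreated H3K27ac. Some were nearer by little. The 4 members around Acsm5 lay 162648 to 195948 bp from treated and 162698 to 195998 bp from untreated H3K27ac. Over the 21 members, the median distances were 20298 bp treated and 24348 bp untreated. The lipid list was chosen with the widest members known, and its median gene length is 49.2 kb. Of its 12 genes, 5 are neighbours in the Acsm region and some share members, so its share is not independent of that region. Mgll, monoacylglycerol lipase (chr6:88724412-88828360), had 5 members, among them chr6:88750049-88755351, with 5303 bp as wide as any member, and a score of 31.8. Its H3K27ac was 9227 bp untreated and 22092 bp treated, and its H3K4me1 40528 and 81934 bp. Every member of Mgll lay within 5 kb of treated or untreated H3K27ac, and none was left when that was not allowed. Cd36, the fatty acid translocase, had 3 members and H3K27ac of 803 and 2406 bp.

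The Acsm region held the other member of 5303 bp, and no acetylation came with it. This member (chr7:119547549-119552851) had the highest score, 45.3, lay 1489 bp from Acsm2 and 4189 bp from Acsm5, both medium-chain acyl-CoA synthetase genes, and was 22348 bp from any untreated H3K4me1 peak. Next to it stood members of 3953 bp with a score of 34.9 and of 1703 bp with a score of 14.0, and the 2403 bp member over the Pdilt start printed above. Around Acsm5 H3K4me1 covered 753 bp untreated and 18868 bp treated, and around Acsm2 0 and 11412 bp, while H3K27ac covered 0 bp in both lists at both genes. Members made up 13362 bp of the treated H3K4me1 at Acsm5 and 10959 bp at Acsm2. The rule chose them for lacking an untreated peak, so most of this contrast was set by the choice of members. The nearest H3K27ac of the widest member was 166848 bp away untreated and 166798 bp treated. H3K4me1 without any H3K27ac nearby was thus measured at the best scored member, in contrast to Mgll.

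Of the 12 widest members, H3K27ac within 20 kb was longer in the treated list at 7, and at the other 5 it was 0 bp in both. The latter were both Acsm members and those near Jade1, in Gabra2 and in Cntnap2. The former included a 4453 bp member 225735 bp from Ccser2, with 0 and 753 bp, a 3853 bp member 3862 bp from Cmpk2, an interferon-induced kinase gene, with 1053 and 4006 bp, a 3803 bp member near Wdr75 with 0 and 403 bp, a 3653 bp member at Apol11b with 0 and 2456 bp, and a 3303 bp member in Mfhas1 with 1003 and 1753 bp.

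Beyond Sox6, the genes with the most members were Megf11 with 10, Sh3tc2 with 8, and Plxna2, Cntnap2, Dpf3, Abca16, Lrba and Lsamp with 6 each, then Mgll, Sh3pxd2a and Pkhd1l1 with 5. In all 16 genes had 5 or more, and ties were broken by the summed width of the members, so that other genes with 5 are not named. Untreated-only sites were 0 at each of these except Cntnap2, with 3, Lrba, with 1, and Lsamp, with 1. Every one of the 12 had longer H3K27ac and longer H3K4me1 in the treated lists over its body and flanks. Members were part of that H3K4me1 length, and the rule also asked for no overlap with either H3K27ac list, so both are given as a description.

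Megf11 encodes a transmembrane protein with EGF-like repeats. Its 7 members in a row over 43.3 kb (chr9:64393099-64436401) were the longest row of all, defined as members within 10 kb of each other. H3K27ac within 20 kb of that row was 0 bp untreated and 1756 bp treated, and over the gene 6074 and 18883 bp. At 9 of its 10 members the nearest H3K27ac was of the treated list alone.

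Sh3tc2, an endosomal protein gene known from Charcot-Marie-Tooth neuropathy (chr18:61952928-62015719), had no H3K27ac untreated in its body and flanks and 11174 bp treated. H3K4me1 was 17398 and 63569 bp. All 8 members lay in the gene, from 1103 to 4203 bp wide, with untreated H3K27ac 100898 to 144448 bp away and treated H3K27ac 2748 to 14898 bp away. The ranges do not overlap. Of these, 6 formed a row over 26.5 kb (chr18:61983099-62009601), with 0 bp of H3K27ac within 20 kb untreated and 5962 bp treated. The members stood in gaps between H3K27ac peaks of the treated list alone, as the map of this gene shows, and were 61.5% of its unacetylated treated sites. When peaks within 500 bp were merged first, 4 members were counted in place of 8.

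H3K27ac at Plxna2, a semaphorin receptor, was 1459 bp untreated and 4412 bp treated, at Dpf3, a subunit of the BAF remodelling complex, 1356 and 8921 bp, and at Abca16, an ABC transporter gene, 1409 and 2706 bp. Lrba, which is needed for CTLA4 recycling, had 4815 and 14177 bp, Sh3pxd2a, a podosome scaffold, 806 and 4209 bp, and Pkhd1l1 5687 and 10812 bp. In each of these 6 genes the treated list covered more.

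**Figure D5:**
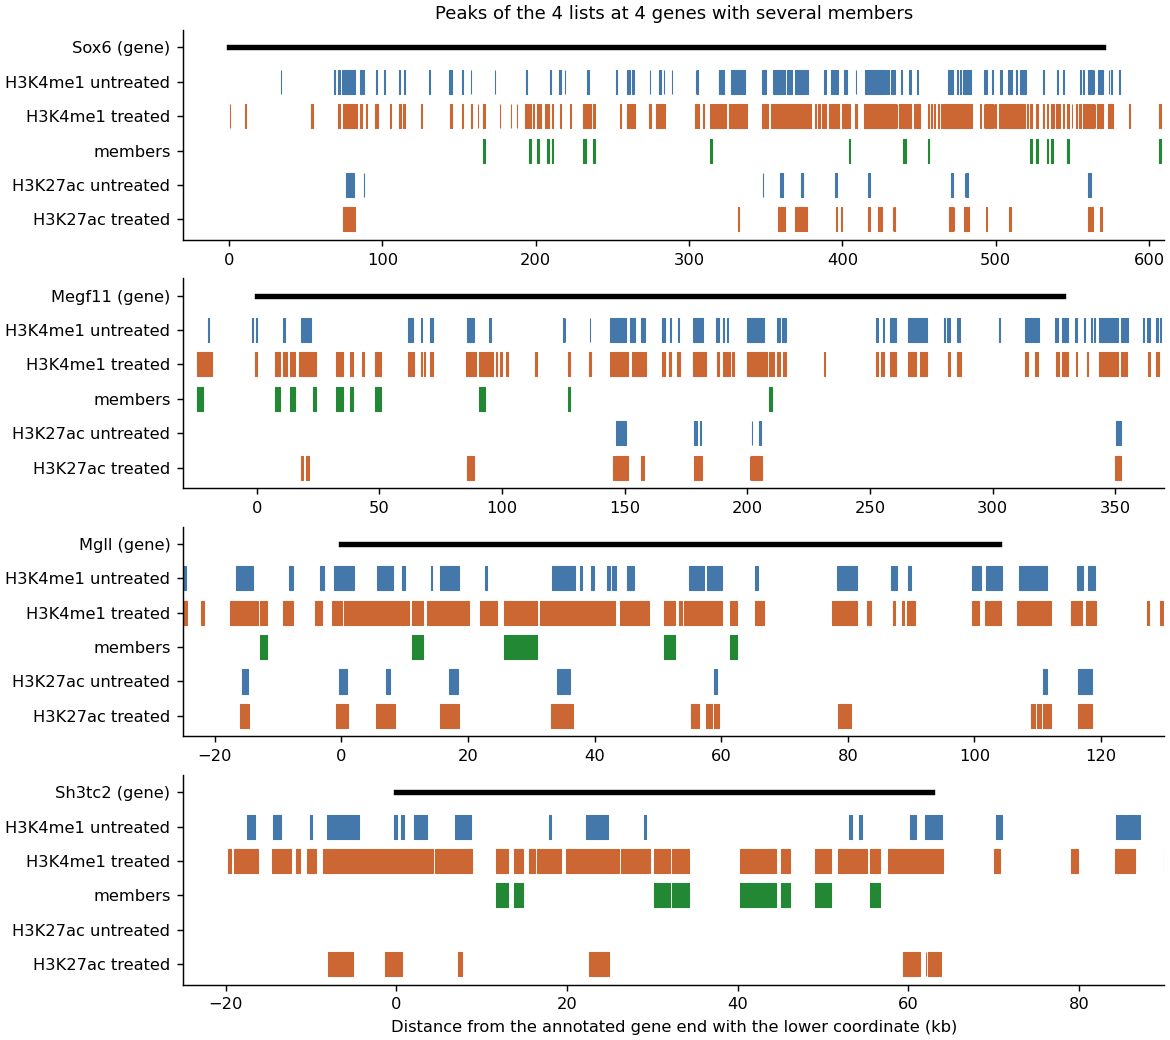
Peaks of the 4 lists are drawn to scale along Sox6, Megf11, Mgll and Sh3tc2, with distance in kb from the annotated gene end of lower coordinate and the gene as a black bar. Each member (green) is by the rule also a peak of treated H3K4me1 (orange). Treated H3K27ac is present at all 4 genes, whereas untreated H3K27ac is absent from Sh3tc2.

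Neuronal adhesion and synapse genes form a group of very long genes, with a median of 1121 kb. Of 24, 10 (41.7%; 22.1 to 63.4%) were near a member and 8 (33.3%) near an untreated-only site, to be read against 30.8% and 24.2% over genes above 500 kb. H3K27ac within 5 kb of a gene end was found at 2 of the 24 in each list. Cntnap2, a neurexin family gene of 2241 kb, had 6 members, 3 untreated-only sites and H3K27ac of 2812 bp untreated and 5462 bp treated. Its members were 173198 to 1084398 bp from treated H3K27ac. Lsamp, a cell adhesion gene, had 6 members and H3K27ac of 1806 and 3253 bp. In Dscam, another adhesion gene, 4 members each had a treated-only H3K27ac peak as the nearest, and H3K27ac was 2059 and 10662 bp.

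Members also came in rows away from these genes. In all, 399 (14.0%; 12.8 to 15.4%) lay within 10 kb of another member, in 180 rows, of which 157 held 2, 15 held 3 and 8 held 4 or more. Of the untreated-only sites 317 (11.4%; 10.2 to 12.6%) were in rows, with 2 rows of 4 or more. The rows of 4 or more not yet named were 5 members across Abca15 and Abca16 (chr7:120405499-120436001) and 5 between genes 139933 bp from Bcor, a co-repressor gene (chrX:12300449-12323601). Around the latter H3K27ac within 20 kb was 1353 bp untreated and 4509 bp treated. In 7 of the 8 rows treated H3K27ac came nearer than untreated H3K27ac and covered more within 20 kb, among them Ank1 with 7665 bp untreated and 10415 bp treated. The exception was the Sox6 row of 4, which had none in either list.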

How the data were processed

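Peak lists of H3K4me1 and H3K27ac, each without and with doxycycline, were used, and samples were grouped by title. The samples for other targets, input and entinostat were not analysed here. Tools listed by the submitters' processing notes are BWA and bcl2fastq 2.17.1.14, with the build mm10. Which program called the peaks, with which thresholds, and how the H3K27ac replicates were joined is not given in the sources used here. A score per H3K4me1 peak, deposited by the authors with no stated scale, was used only to rank peaks and as a description. A further column of the H3K4me1 lists, with values up to 0.01 and deposited by the authors, may be a p-value or q-value and was not used. The H3K27ac lists hold positions and widths. Read depth is unknown, and deeper sequencing can add peaks to a list or widen them.

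Positions count from 1 and include both ends. Overlaps, distances and covered lengths were computed in Python 3.11.15 with numpy 2.4.6, pandas 2.3.3 and scipy 1.17.1, tested on simulated peaks, and the 2844 members were checked with bedtools 2.31.1, which found the same number. Figures were drawn with matplotlib 3.10.9. Genes and start windows came from RefSeq tables on GRCm38.p6, with 21887 protein-coding genes. The symbols Ahsp, Fam132b, Emr1 and Lnk had no match. Motifs and base composition were planned over the members and were computed only for start windows, since no genome was used here.

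The rule for named items took the 12 widest members, those nearest each threshold, the 12 genes with the most members, the 3 genes of each list with the most member sequence, and Spi1. The other genes named were chosen after their values were seen. Some genes that the rule takes are left out of the text. The members and the 16 gene lists were chosen with earlier results of these data known, and the lists give counts without a test.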

Additional observations from a re-analysis of the deposited data

How the results depend on the processing

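Alternatives changed the width asked, the distance to untreated H3K4me1 or to H3K27ac, the peak numbers, the score, merging, chromosomes and gene windows. H3K27ac peaks of at least 200 bp was an alternative chosen after seeing the data. No share of unequal or of nearer H3K27ac crossed 50%, and the cause of each move was not tested.

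Members were 15.9% of wide treated peaks at a minimum width of 500 bp, 1.61% at 1500 bp and 0.673% at 2000 bp, 4.31% and 2.77% with no untreated H3K4me1 within 500 bp and 2 kb, 6.39% with equal peak numbers, 2.56% in the better scored 50% and 3.67% with no H3K27ac within 5 kb. At a gene end were 4.61% (500 bp), 10% (2000 bp), 4.37% (2 kb from untreated H3K4me1), and 3.90% and 9.07% with ends taken as 500 bp and 2 kb. Intergenic were 45.1% and 48.5% at 1500 and 2000 bp, and 46.9% both at 2 kb from untreated H3K4me1 and in the better scored 50%.

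For widths of 500, 1500 and 2000 bp, 54.8%, 67.6% and 73.5% of members were nearer to treated H3K27ac, treated H3K27ac within 20 kb was longer at 62.6%, 81% and 87.2% of unequal members, and at the ends of 53.1%, 67.6% and 70.9% of unequal genes. In the better scored 50% these were 65.2%, 78.6% and 65.4%. With no H3K27ac within 5 kb they were 58.6% and 67.9%, with no untreated H3K4me1 within 2 kb the flanks gave 75.1%, and gene windows of 50 kb gave 56.8% of genes.

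Erythroid genes near a member numbered 38, 7 and 3 at 500, 1500 and 2000 bp, 9 with no untreated H3K4me1 within 2 kb, 10 in the better scored 50%, 11 with no H3K27ac within 5 kb and 11 with gene windows of 5 kb. Myeloid genes numbered 20, 1 and 1 at the widths, 1 and 1 for 2 kb and the better scored 50%, and 0 with no H3K27ac within 5 kb. The share of all genes moved too, from 0.763% at 2000 bp to 40.0% at 500 bp.

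No paired analysis was possible because each mark and condition has a single peak list and no replicate can be left out. With 1 list a condition, list depth and calling cannot be told apart from the treatment.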
